A study of Mus musculus with 157 samples.

Results

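Thymic lymphomas of LCK-Cdc20(D/AAA) MYCChr6 mice (14 tumours) were set against thymic lymphomas of RERT2-Cdc20(D/AAA) mice with no other labelled allele (22 tumours). These 36 tumours were all those with these genotype labels among the 76 libraries of the later run, out of 157 libraries in the whole series. Both groups carry the genotype Cdc20(D/AAA). Cdc20 activates the anaphase-promoting complex, and Mad2, which holds Cdc20 back until chromosomes are attached, does not bind its AAA form. RERT2 and LCK are the names the labels give to the mouse lines, and MYCChr6 marks mice with human MYC inserted in mouse chromosome 6. The line and MYCChr6 change together between the groups and cannot be told apart in this comparison. The human MYC transcript is not a row of the table. Smaller groups were used beside the main ones: 4 tumours of LCK-Cdc20(+/D) MYCChr6 mice, 3 tumours of RERT2-Cdc20(D/AAA) MYCChr6 mice and 6 non-tumoral RERT2-Cdc20(+/D) thymus libraries. Tumour RNA came from unsorted cells, so fewer cells of a type and less RNA per cell cannot be told apart. The labels give no age, sex or litter, and do not say whether each tumour came from its own mouse, so the p-values reflect only how far these libraries spread, which may be technical in part.

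Thymocytes pass from double negative stages (no CD4 or CD8), where Notch signals and the pre-T cell receptor drive expansion, to the double positive stage, where Rag1 and Rag2 rearrange the T cell receptor alpha genes, and then to mature single positive cells that leave the thymus through S1pr1. Notch1 is a common driver of T cell lymphoma in mice. MYC is a transcription factor for growth genes, among them those of ribosome biogenesis, and in thymocytes it is itself a Notch target.

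The LCK libraries had 4237526 to 7038313 counts and the RERT2 libraries 2461375 to 6639518. The clone-named gene CT010467.1 took 35.97% ± 3.40 of counts in LCK tumours and 40.44% ± 2.705 in RERT2 tumours, and mitochondrial genes took 2.93% ± 1.26 and 1.80% ± 0.351 in those groups (LCK MYCChr6, then RERT2; SD, n = 14 and 22). Replicate 9 of the LCK tumours goes against its thymic lymphoma label. It had 381929 CPM in immunoglobulin genes, where the other 13 LCK tumours had 322 to 16790 CPM and the RERT2 tumours 4.04 to 1039 CPM. The summed immunoglobulin CPM in this paragraph were taken over raw library totals, without the TMM scaling of the single-gene CPM values. Replicate 9 had 10146 CPM (counts-per-million, scaled by TMM) of Jchain, an antibody-joining chain of plasma cells, with 1962 CPM of Mzb1. It had 55.0 CPM of Lck and 141 CPM of Cd3e, the lowest Lck and Cd3e levels of the group. Counts over gene lists are given with it and, where they differ, without it. One of the 3 RERT2 MYCChr6 tumours, replicate 3, also had raised immunoglobulin, at 70188 CPM.

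Across 11130 genes tested, 3934 (35.3%) differed at an adjusted p under 0.05 in edgeR, of which 2071 (18.6% of genes tested) were higher in LCK MYCChr6 tumours and 1863 (16.7%) were lower. Of these, 949 were over 2-fold higher and 809 over 2-fold lower. Rises and falls below are of LCK MYCChr6 against RERT2 tumours, and do not say which group departed from control thymus. The median log2 fold change of all genes was 0.001, so the shares of 18.6% and 16.7% are the background for each gene group below. Without replicate 9, 3939 of 11072 genes (35.6%) were called (18.5% higher, 17.1% lower), and 3586 of them had been called in the same direction with it. Ranges of the groups did not overlap for 41 genes (0.368%), with 23 higher (0.207%) and 18 lower (0.162%) in LCK MYCChr6 tumours.

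Notch1 and genes that Notch is known to switch on were low in LCK MYCChr6 tumours. Of 16 tested genes of the Notch list, 11 fell and 4 rose, with a median log2 fold change of -1.21; the same counts held without replicate 9. Notch1, the main Notch receptor of thymocytes (GRCm38 chromosome 2), had a lowest, median and highest level of 4.44, 44.0 and 225 CPM in LCK MYCChr6 tumours, against 65.2, 1629 and 7418 CPM in RERT2 tumours. Most RERT2 tumours lay above every LCK tumour, and the lowest RERT2 tumours lay within the LCK range. The log2 fold change was -4.83 ± 0.65 (SE, adjusted p = 5.6e-07). Notch1 averaged 456 CPM in the control thymus libraries, a level between the medians of the 2 tumour groups.

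Ptcra, the pre-T cell receptor alpha chain and a direct Notch target, had 0, 0.426 and 5.80 CPM in LCK MYCChr6 tumours, against 0.203, 60.5 and 174 CPM in RERT2 tumours (log2 fold change -6.32 ± 0.78, adjusted p = 1.1e-07). Every LCK tumour lay below the RERT2 median. The Ptcra promoter is shown because the Notch partner RBPJ binds the letters TGGGAA. The window runs from 250 bases before to 50 bases after the RefSeq start (GRCm38.p6, chr17:46763663-46763962, minus strand), and capitals mark TGGGAA, searched on both strands (TTCCCA on the other).
Ptcra: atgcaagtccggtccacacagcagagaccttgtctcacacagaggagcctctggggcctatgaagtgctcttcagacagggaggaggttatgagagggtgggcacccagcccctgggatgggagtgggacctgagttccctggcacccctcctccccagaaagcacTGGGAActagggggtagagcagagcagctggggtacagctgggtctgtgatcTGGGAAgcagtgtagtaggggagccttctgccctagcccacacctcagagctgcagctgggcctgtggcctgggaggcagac
It held 2 matches, both on the strand of the gene. Of the 13 tested Notch list genes with a promoter entry, 4 held a match (30.8%), where 28.3% of all 27025 genes with an entry did, so the share in the list was near that of all genes.

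The other receptors and targets split. Notch3, a receptor that is also a Notch target, had 0, 2.36 and 21.2 CPM in LCK MYCChr6 tumours, against 0.610, 118 and 272 CPM in RERT2 tumours (log2 fold change -4.22 ± 0.72). Dtx1, a Notch-induced ubiquitin ligase, had 0, 4.34 and 17.8 CPM against 0, 96.6 and 319 CPM in RERT2 tumours (-4.24 ± 0.85). The repressor genes Heyl (-4.73 ± 0.79) and Hes1 (-3.85 ± 0.78) also fell, Hes1 from low levels, with 0, 0.273 and 4.16 CPM in LCK MYCChr6 tumours against 0, 4.61 and 89.5 CPM in RERT2 tumours. Rbpj itself, the DNA-binding partner, fell by 0.74 on the log2 scale, and Maml1, its coactivator, by 0.76. In contrast Notch2 rose, with 18.6, 90.1 and 139 CPM in LCK MYCChr6 tumours against 14.1, 42.0 and 79.8 CPM in RERT2 tumours (1.14 ± 0.22, adjusted p = 9.2e-05). Lfng and Mfng, glycosyltransferases that modify Notch receptors, rose by 2.68 ± 0.67 and 0.65 ± 0.19. Il2ra, the interleukin 2 receptor alpha chain of DN2 and DN3 cells, did not pass the test (-1.23 ± 0.87, adjusted p = 0.29). With the CT010467.1 share as a covariate, 7 of the 16 genes were lower and 2 higher, and with the summed B cell markers as a covariate, 8 were lower and 2 higher. Over all genes the first of these fits called 2318 (20.8%; 10.9% higher and 9.89% lower) and the second 3220 (28.9%; 15.1% higher and 13.8% lower).

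**Figure D1:**
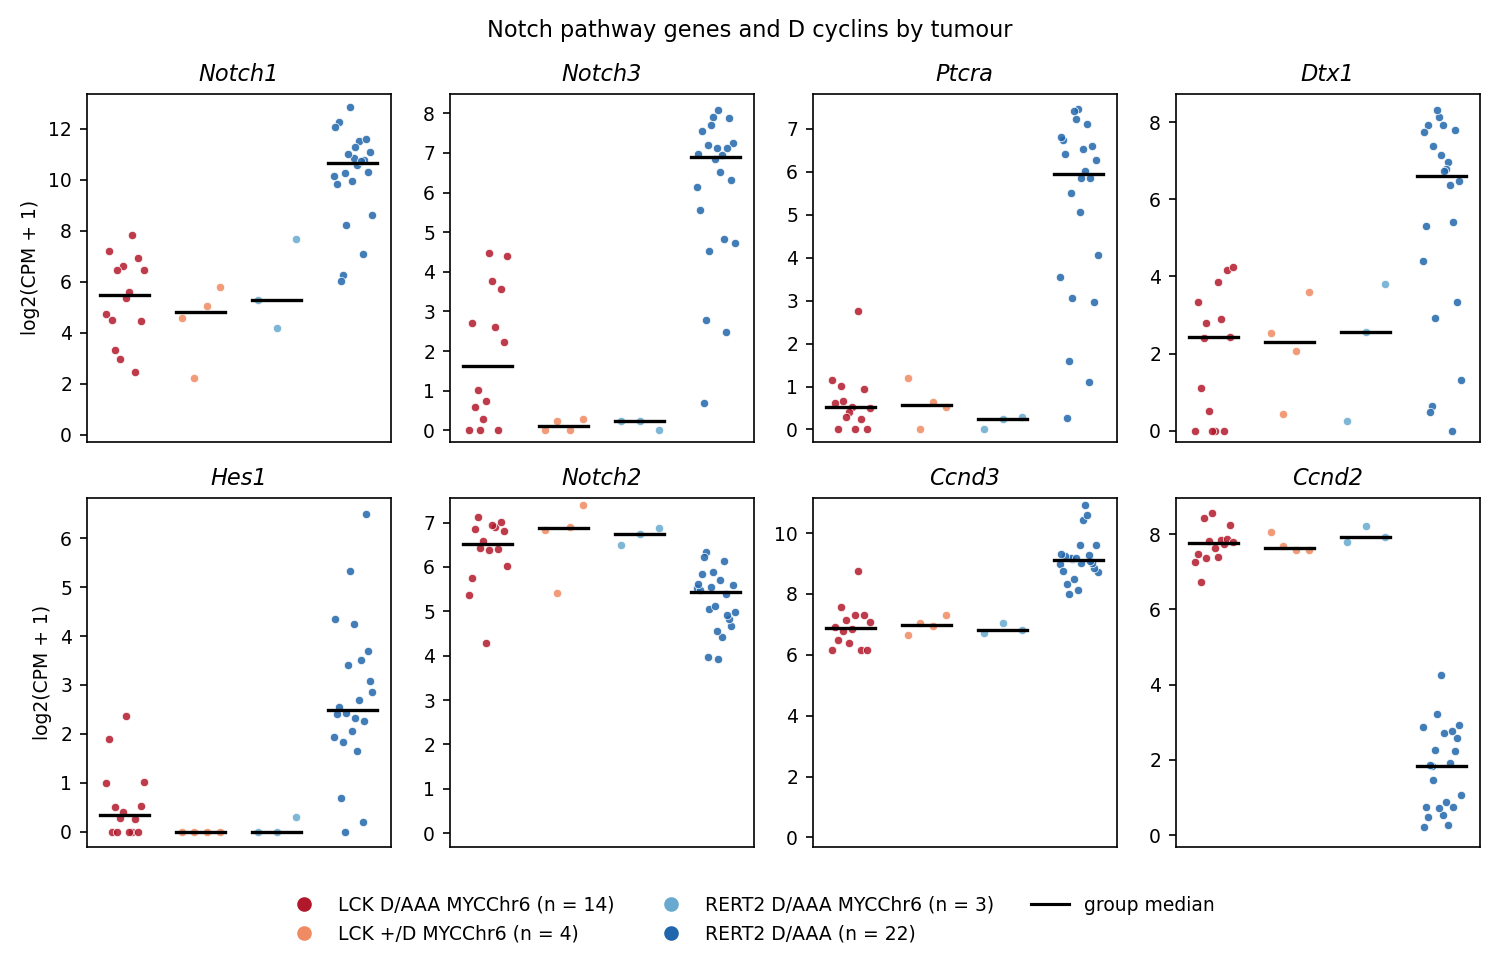
Levels of 6 Notch pathway genes and 2 D cyclins in each tumour, as log2(CPM + 1), by group; each point is 1 tumour and the black line is the group median. Ptcra and Ccnd3 are lower, and Ccnd2 and Notch2 higher, in LCK MYCChr6 tumours than in RERT2 tumours, and the 4 LCK +/D and 3 RERT2 tumours with MYCChr6 sit beside the LCK tumours for Ccnd2.

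The D cyclins, which bind CDK4 and CDK6 to start the cell cycle moved in opposite directions. Ccnd2 (chromosome 6, 127125162 to 127152193) had 105, 218 and 374 CPM in LCK MYCChr6 tumours, against 0.163, 2.61 and 18.3 CPM in RERT2 tumours. The ranges did not overlap, and the log2 fold change was 5.97 ± 0.42 (adjusted p = 4.9e-13). In control thymus Ccnd2 ran from 48.1 to 76.1 CPM, between the ranges of the tumour groups. Ccnd3, the D cyclin that thymocytes need to expand at the pre-T cell receptor stage, had 69.8, 117 and 432 CPM in LCK MYCChr6 tumours, against 257, 555 and 1939 CPM in RERT2 tumours (-2.24 ± 0.28, adjusted p = 1.4e-07), and the ranges overlapped. Ccnd1 did not pass the test (-0.39 ± 0.51, adjusted p = 0.60). Of 14 tested genes of the D cyclin list, 2 rose and 4 fell; Cdk6 fell by 0.84 and the CDK inhibitor Cdkn2c by 1.61 on the log2 scale, while the inhibitor Cdkn1a rose by 1.07 ± 0.42 (adjusted p = 0.045).

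Replication and mitosis genes were lower as groups, by small amounts. Of 30 replication and S phase genes, 13 fell (12 without replicate 9) and 1 rose (median log2 fold change -0.42). Tyms, thymidylate synthase, had 35.8, 49.2 and 76.1 CPM in LCK MYCChr6 tumours, against 54.2, 98.1 and 135 CPM in RERT2 tumours (-0.89 ± 0.13), and Cdc45 (-0.74 ± 0.13) and Mcm7 (-0.65 ± 0.14) of the replicative helicase also fell. The gene that rose was Ccne1, cyclin E1, which acts at the start of S phase, with 15.6, 44.9 and 124 CPM against 5.60, 15.2 and 35.0 CPM in RERT2 tumours (1.64 ± 0.24). Of 30 mitotic genes, 12 fell and 2 rose (median -0.36), with the spindle factor Tpx2 at -0.82 ± 0.15. The 2 that rose were Ccnb1 (0.72 ± 0.26) and Mad2l1 (0.57 ± 0.16), which encodes Mad2 and lies on chromosome 6. Cdc20 had 10.96, 59.8 and 104 CPM in LCK MYCChr6 tumours, against 27.0, 81.6 and 142 CPM in RERT2 tumours, and did not pass the test (-0.43 ± 0.21, adjusted p = 0.11). With the B cell marker covariate the numbers of lower genes were 3 of 30 for replication and 6 of 30 for mitosis.

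Endogenous mouse Myc (chromosome 15) was lower in LCK MYCChr6 tumours, at 52.7, 91.0 and 157 CPM, against 75.2, 158 and 340 CPM in RERT2 tumours (-0.82 ± 0.19, adjusted p = 0.001). With the B cell marker covariate its adjusted p was 0.12. Mouse Myc averaged 56.2 CPM in control thymus, under the median of each tumour group. In the MYC network of 11 tested genes, 4 fell (5 without replicate 9) and 1 rose: besides Myc, Max, the partner of MYC, fell by 0.57, Mxd3 by 1.14 and the MYC-binding factor Zbtb17 by 0.60 on the log2 scale, and the antagonist Mxd1, on chromosome 6, rose by 1.415 ± 0.357. Trp53 did not pass the test, at 67.9, 155 and 197 CPM in LCK MYCChr6 tumours against 32.0, 175 and 266 CPM in RERT2 tumours (-0.13 ± 0.19, adjusted p = 0.63). Of 18 tested Trp53 target list genes, 4 rose (Bax, Ccng1, Ei24 and Cdkn1a) and 2 fell (Mdm2 and Mdm4).

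Ribosome biogenesis genes rose in part. Of 32 nucleolar genes, 14 rose and none fell (median log2 fold change 0.29); 16 rose without replicate 9, 25 with the B cell marker covariate and 6 with the CT010467.1 covariate. The smallest p among them was that of Nop16, a ribosome assembly factor, with 35.0, 76.7 and 109 CPM in LCK MYCChr6 tumours, against 10.7, 38.2 and 56.7 CPM in RERT2 tumours (1.07 ± 0.16, adjusted p = 1.5e-06). Polr1a, the large subunit of RNA polymerase I (0.94 ± 0.15), Wdr43 (0.77 ± 0.15), Bysl (0.995 ± 0.195) and Nop2 (0.87 ± 0.20) also rose. Polr1a and Nop2 were the 2 of the 14 that lie on chromosome 6. The promoters of Wdr43 (GRCm38.p6, chr17:71615965-71616264, plus strand) and Nop2 (chr6:125131633-125131932, plus strand) are shown because they hold the E-box CACGTG, the site that MYC and MAX bind, in capitals (the word reads the same on both strands).
Wdr43: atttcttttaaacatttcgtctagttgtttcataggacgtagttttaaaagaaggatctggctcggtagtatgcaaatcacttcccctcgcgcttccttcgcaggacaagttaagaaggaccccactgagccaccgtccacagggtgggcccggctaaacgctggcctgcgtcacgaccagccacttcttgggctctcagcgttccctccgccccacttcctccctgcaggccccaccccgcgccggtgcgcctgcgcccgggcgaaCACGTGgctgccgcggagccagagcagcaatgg
Nop2: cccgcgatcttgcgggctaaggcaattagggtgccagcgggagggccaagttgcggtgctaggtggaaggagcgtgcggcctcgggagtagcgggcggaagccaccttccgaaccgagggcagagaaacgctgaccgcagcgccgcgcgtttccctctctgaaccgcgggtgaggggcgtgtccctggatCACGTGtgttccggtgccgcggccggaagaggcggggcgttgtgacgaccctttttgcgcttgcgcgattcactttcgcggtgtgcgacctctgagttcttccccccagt
Of the 27 nucleolar genes with a RefSeq promoter entry, 7 held the word (25.9%), where 8.09% of all 27025 genes with an entry did. The match is a description of the window, and binding was not measured.

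Genes of the double positive stage were low in most LCK MYCChr6 tumours. Of 20 tested, 10 fell and 1 rose (median log2 fold change -1.55), and the counts were the same without replicate 9. Arpp21, an RNA-binding protein gene of double positive cells, had 0, 1.19 and 137 CPM in LCK MYCChr6 tumours, against 58.9, 167 and 303 CPM in RERT2 tumours (-3.78 ± 0.75, adjusted p = 0.00016). Bcl2l1, a survival gene of double positive cells, fell by 2.01 ± 0.32. The coreceptors did not pass the test: Cd4 (-0.35 ± 0.52, adjusted p = 0.64), Cd8a (-0.86 ± 0.50, adjusted p = 0.19) and Cd8b1 (0.02 ± 0.50, adjusted p = 0.98). Cd8a ran from 0 to 547 CPM among LCK tumours and from 20.5 to 506 CPM among RERT2 tumours.

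The recombination genes followed in part, with 4 of 9 lower and none higher (3 lower without replicate 9). Dntt, the terminal transferase that adds bases at receptor joints, had 0, 0.394 and 153 CPM in LCK MYCChr6 tumours, against 0, 81.2 and 431 CPM in RERT2 tumours (-3.01 ± 0.85). Rag1 had 0, 1.38 and 282 CPM in LCK MYCChr6 tumours, against 0.554, 120 and 207 CPM in RERT2 tumours, and did not pass the test (-1.94 ± 0.79, adjusted p = 0.052). The LCK tumours differed widely among themselves. Replicate 6 alone had 282 CPM of Rag1, 137 CPM of Arpp21, 262 CPM of Satb1 and 153 CPM of Dntt, each the highest of the 14. That library also had the lowest top receptor segment shares of the 14, no chromosome gain (both below) and the highest CT010467.1 share, 43.0%. Its content of non-tumour cells was not tested. Xrcc6, the Ku70 end-joining gene, fell in a more uniform way, with 25.5, 69.8 and 220 CPM in LCK MYCChr6 tumours against 198, 419 and 761 CPM in RERT2 tumours (-2.26 ± 0.23, adjusted p = 1.3e-09), and Lig4, the ligase of that pathway, fell by 1.36.

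Among the pre-T cell receptor and CD3 chains, 3 of 11 fell and none rose: Ptcra (above), the zeta chain Cd247 (-1.64 ± 0.19) and Cd3e (-1.17 ± 0.15). Cd3d did not pass the test (-0.09 ± 0.19, adjusted p = 0.77). Commitment factors were lower in 9 of 23 and higher in 4, against 8 and 3 without replicate 9, 5 and 1 with the CT010467.1 covariate and 5 and 2 with the B cell marker covariate. Runx1 had 5.99, 24.9 and 96.4 CPM in LCK MYCChr6 tumours, against 40.7, 85.3 and 129 CPM in RERT2 tumours (-1.62 ± 0.25), and Bcl11b (-1.37 ± 0.23), Lef1 (-1.66 ± 0.33) and Satb1 (-2.04 ± 0.58) also fell, while Id3, an inhibitor of E proteins, rose by 1.33 ± 0.38. In the coreceptor list, 3 of 10 fell (Runx1, Satb1 and Gata3), and Runx3, the factor of the CD8 lineage, rose by 1.73 ± 0.44. Of 11 tested DN2 and DN3 genes, 5 fell, 4 of them also in the Notch list, and 3 rose (1 without replicate 9): Spi1, Lyl1 and Cd44.

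Genes of mature and emigrating thymocytes were higher. Of 18 tested, 13 rose and 1 fell, with a median log2 fold change of 2.56 and the same counts without replicate 9; 5 of the 13 lie on chromosome 6. Gimap3, a GTPase of the lymphocyte survival family on chromosome 6 (48764464 to 48770851), had 15.8, 97.9 and 152 CPM in LCK MYCChr6 tumours, against 0, 1.90 and 5.82 CPM in RERT2 tumours. The ranges did not overlap, and the log2 fold change was 5.25 ± 0.36 (adjusted p = 1.6e-13). Its neighbours Gimap4 (3.997 ± 0.423) and Gimap6 (2.22 ± 0.23) also rose. Away from chromosome 6, Ms4a4b rose by 5.19 ± 0.47 and the chemokine receptor Ccr7 by 2.79 ± 0.44. S1pr1, the egress receptor, had 3.42, 22.6 and 97.2 CPM in LCK MYCChr6 tumours, against 0, 1.65 and 33.9 CPM in RERT2 tumours (3.22 ± 0.61), and its activator Klf2 rose by 2.91 ± 0.58. Ly6c1 was the gene that fell, by 3.77 on the log2 scale.

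**Figure D2:**
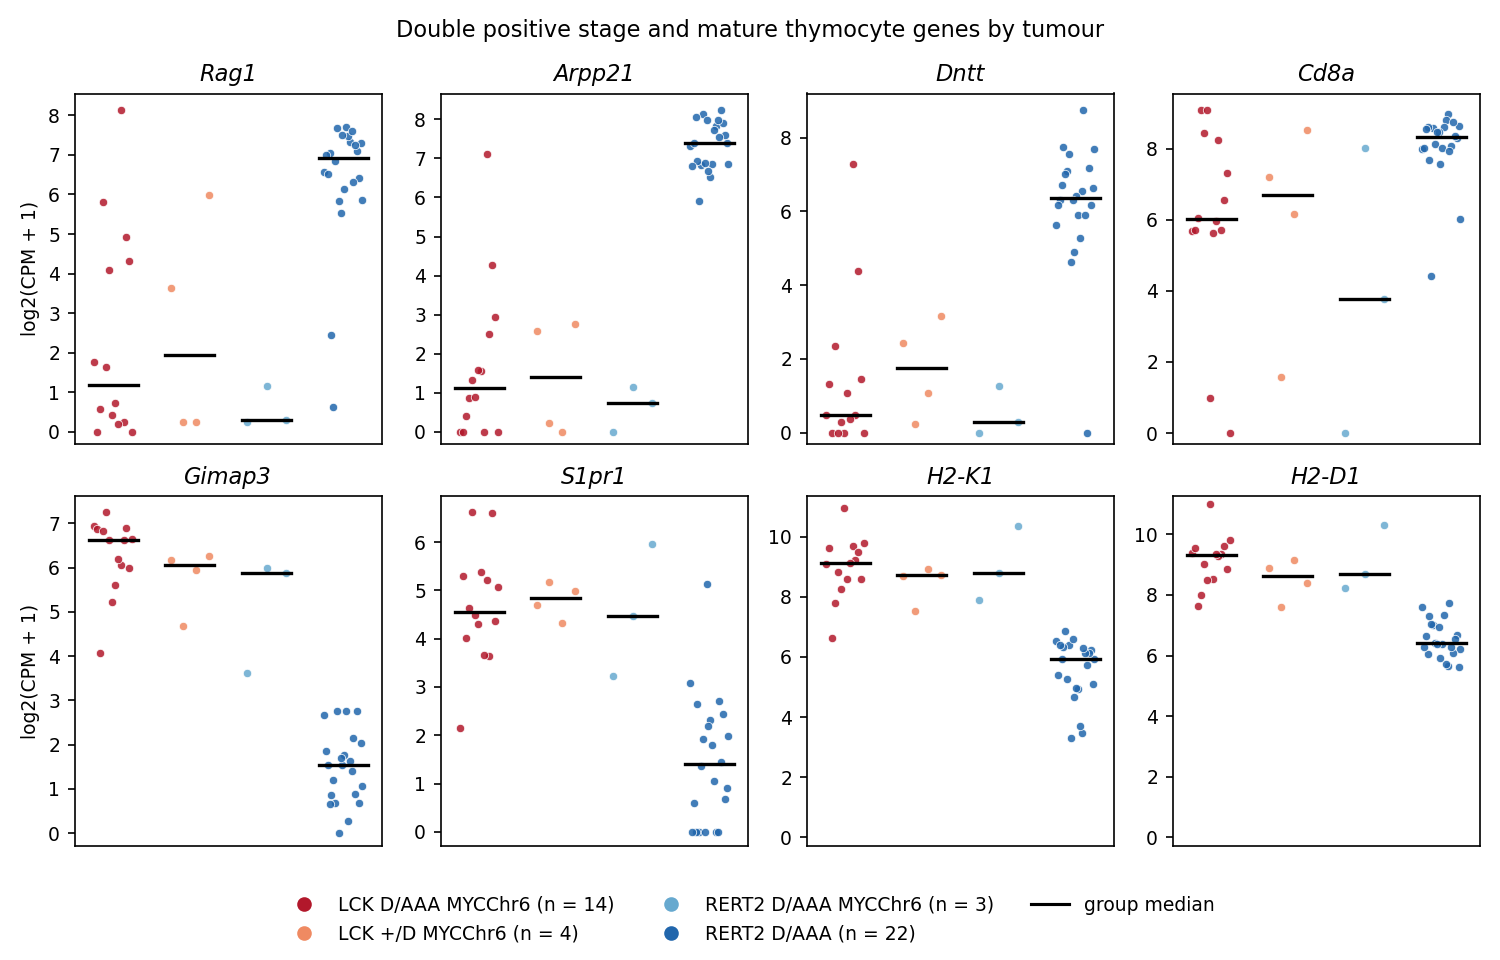
Levels of 4 genes of the double positive stage (top row) and 4 genes of mature thymocytes (bottom row) in each tumour, as log2(CPM + 1), by group; each point is 1 tumour and the black line is the group median. Rag1 spans 0 to 282 CPM among LCK MYCChr6 tumours, while Gimap3 lies above every RERT2 tumour in all 14.

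MHC class I genes, which present peptides to CD8 T cells, were also higher: 13 of 18 rose and 2 fell (median log2 fold change 0.84), 11 and 2 without replicate 9. H2-K1 had 97.7, 550 and 1988 CPM in LCK MYCChr6 tumours, against 8.95, 60.1 and 116 CPM in RERT2 tumours (3.51 ± 0.33, adjusted p = 3.9e-10), and 1 LCK tumour lay within the RERT2 range. H2-D1 had 197, 632 and 2033 CPM against 48.5, 83.5 and 212 CPM in RERT2 tumours (2.74 ± 0.24). H2-Q6 (5.17 ± 0.57) and H2-Q7 (4.44 ± 0.59) rose too, and reads of these near-identical genes could be split between them by the counting. Nlrc5, the transactivator of class I genes, rose by 2.41 ± 0.49. The peptide transporter subunits moved apart, Tap1 up (0.72 ± 0.19) and Tap2 down (-1.25 ± 0.17). B2m, the class I light chain, rested on replicate 9, with 1.26 ± 0.33 (adjusted p = 0.0032) with it and 0.50 (adjusted p = 0.068) without it, and H2-T23 likewise (1.02, then 0.25 with adjusted p = 0.40). With the B cell marker covariate 6 of 18 were higher. Of 20 interferon-inducible genes, 2 rose (Gbp3 and Irf7) and 3 fell (0 and 2 with the B cell marker covariate), with Usp18, which turns interferon signalling off, at -3.46 ± 0.69.

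Of 26 tested T cell receptor signalling genes, 9 rose (10 without replicate 9) and 3 fell. Among the 3 that fell, the adaptor Lat had 35.1, 231 and 381.6 CPM in LCK MYCChr6 tumours, against 382.1, 536.5 and 829.4 CPM in RERT2 tumours, ranges that nearly met (-1.31 ± 0.19), the kinase Lck fell by 0.86 ± 0.15 and Themis by 1.54 ± 0.38. Lck had 55.0, 324 and 567 CPM in LCK MYCChr6 tumours, against 464, 597 and 848 CPM in RERT2 tumours. Those that rose include genes induced by receptor signals, Egr2 (2.86 ± 0.71), Cd69 (2.80 ± 0.63), Dusp5 (1.73 ± 0.34) and Egr1, and the phosphatase gene Ptpn6 (0.96 ± 0.18). Of 22 cytokine receptor and JAK STAT genes, 6 rose and 1 fell (5 and 0 without replicate 9). Il2rb, the shared beta chain of the interleukin 2 and 15 receptors, had 68.5, 339 and 1038 CPM in LCK MYCChr6 tumours, against 0.184, 11.98 and 52.7 CPM in RERT2 tumours (4.81 ± 0.50), with no overlap, and Il7r did not pass the test (0.19 ± 0.51, adjusted p = 0.81).

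Chaperonin and amino acid genes were higher more often than lower. Of 20 chaperonin and heat shock genes, 9 rose and 1 fell (13 rose without replicate 9 and 15 with the B cell marker covariate, 5 with the CT010467.1 covariate), with Cct7 at 0.63 ± 0.11 and Cct3 at 0.58 ± 0.12. Of 18 amino acid and ATF4 genes, 7 rose and 2 fell (6 and 3 without replicate 9); Atf4, the stress-response factor, rose by 0.86 ± 0.16, the glutamine transporter Slc1a5 by 1.001 ± 0.157 and Asns by 1.35 ± 0.34, while the cystine transporter Slc7a11 fell by 3.06. Of 20 glycolysis genes, 6 rose (8 without replicate 9 and 11 with the B cell marker covariate), led by Hk2 (1.95 ± 0.28) and Tpi1 (0.95 ± 0.17), both on chromosome 6, and 2 fell, Pfkm and Hk1. Of 28 respiratory chain genes, 3 rose and 3 fell, and all 3 that rose (Ndufa4, Cycs and Ndufa9) lie on chromosome 6. Ndufa4 was the clearest, with 178, 289 and 403 CPM in LCK MYCChr6 tumours against 87.2, 159 and 215 CPM in RERT2 tumours (0.96 ± 0.11).

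Survival and lymphoma genes gave small counts. In the BCL2 family, 3 of 11 rose (Mcl1, Bax and Bcl2a1b, the last not testable without replicate 9) and 3 fell, among them the death gene Bmf (-2.94 ± 0.48). Of 19 PI3K and mTOR genes, 2 rose (3 without replicate 9), with the kinase subunit Pik3cd at 1.602 ± 0.245, and 2 fell, with Foxo3 at -1.35 ± 0.21. Of 23 lymphoma suppressors and oncogenes, 7 fell, Notch1, Ccnd3, Runx1, Bcl11b and Lef1 among them, and 3 rose, Eed, Nras and Jak3; without replicate 9 the counts were 6 and 2.

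**Figure D3:**
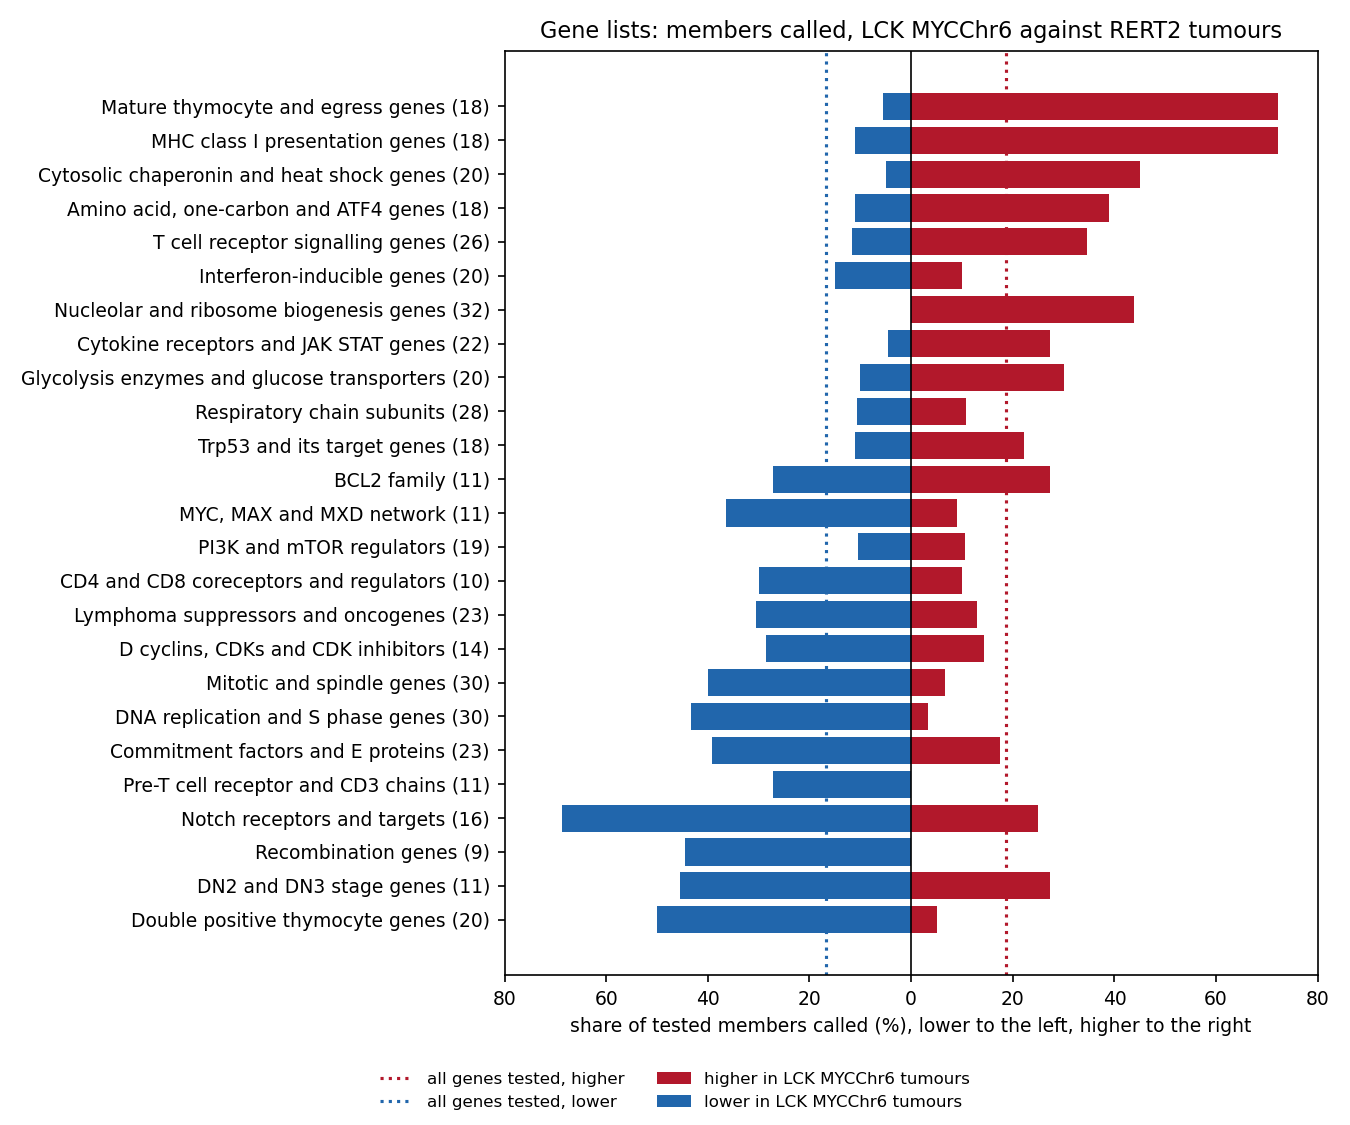
Share of tested members (number in brackets) of 25 gene lists that were called higher (right, red) or lower (left, blue) in LCK MYCChr6 tumours against RERT2 tumours; dotted lines give the shares over all genes tested, 18.6% and 16.7%. Lists are ordered by median log2 fold change, from 2.56 for mature thymocyte genes at the top to -1.55 for double positive genes at the bottom.

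The largest rises by the naming rule were F2rl1, Slpi, Ccr10, Jchain, Sh3bgrl2, Mpo, S100a9, Ngp, Camp and Spock2, of which Mpo, S100a9, Ngp and Camp are granulocyte markers and Jchain is a plasma cell marker. F2rl1, the protease-activated receptor 2 gene, averaged 22.8 ± 32.1 CPM in LCK MYCChr6 tumours and 0.0273 ± 0.0931 CPM in RERT2 tumours (SD, n = 14 and 22), with no overlap (log2 fold change 8.84 ± 0.59, adjusted p = 7.7e-14). Spock2, an extracellular proteoglycan gene, had 39.4, 102 and 553 CPM against 0, 0.620 and 12.9 CPM in RERT2 tumours (6.35 ± 0.60). Slpi reached 2723 CPM in replicate 9, and Slpi, Ccr10, Mpo and Camp did not pass the count filter without that library. By smallest p the rule added Gimap3, S100a11, Ccnd2, Samhd1 and H2-D1. Each of these had control thymus levels between the medians of the LCK MYCChr6 and RERT2 tumours. In control thymus Gimap3 ran from 8.02 to 35.7 CPM, S100a11 from 19.6 to 44.1 CPM and Ccnd2 from 48.1 to 76.1 CPM. Samhd1 ran from 18.1 to 33.9 CPM there and H2-D1 from 157 to 259 CPM. Samhd1, a nucleotide phosphohydrolase, had 17.3, 49.1 and 117 CPM in LCK MYCChr6 tumours, against 0.285, 1.27 and 11.2 CPM in RERT2 tumours (4.44 ± 0.39), and the groups did not overlap.

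S100a11, a calcium-binding protein gene, had 34.2, 73.9 and 147 CPM in LCK MYCChr6 tumours, against 0, 2.15 and 8.55 CPM in RERT2 tumours, with no overlap (4.94 ± 0.35, adjusted p = 4.9e-13). Its promoter (GRCm38.p6, chr3:93520246-93520545, plus strand) is shown as that of a rise on another chromosome whose window holds an E-box, in capitals.
S100a11: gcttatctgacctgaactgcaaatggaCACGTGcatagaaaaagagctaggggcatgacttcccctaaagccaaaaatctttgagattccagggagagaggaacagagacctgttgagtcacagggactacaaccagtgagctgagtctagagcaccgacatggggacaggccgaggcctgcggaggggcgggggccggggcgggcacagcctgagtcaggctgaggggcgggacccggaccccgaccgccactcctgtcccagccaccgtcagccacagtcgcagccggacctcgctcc
Among all 32851 promoter entries, 7.15% held the word, and among all 27025 genes with an entry 8.09% did. The window was chosen for its match, so the match is a description only.

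The largest falls were Sall3, Spsb4, Foxb1, Stc1, Ripk4, Gfra1, Exoc3l4, Pdgfrb, F2 and Acan. Sall3, Spsb4 and Stc1 had no count in any of the 14 LCK tumours. Against a floor of 3 counts per library, Sall3, a transcription factor gene with a mean of 35.7 CPM in RERT2 tumours, was at least 59.0-fold lower, Spsb4 at least 19.2-fold and Stc1 at least 11.3-fold. Gfra1, the GDNF receptor gene, averaged 1.32 ± 2.27 CPM in LCK MYCChr6 tumours and 191 ± 103 CPM in RERT2 tumours (-7.16 ± 0.73). With limma voom the adjusted p of Gfra1 was 0.0917 and that of Ripk4 0.156. Pdgfrb, the PDGF receptor beta gene, had 0, 0 and 2.67 CPM against 5.96, 31.7 and 93.8 CPM in RERT2 tumours (-6.95 ± 0.60), with no overlap. Among other fibroblast markers, Lum had 0 CPM in every LCK tumour and at most 0.368 CPM in RERT2 tumours. The medians of Dcn and Col3a1 were under 1 CPM in both groups, while Col1a2 also fell. The whole list of 12 fibroblast markers summed to 6.01, 79.7 and 337 CPM in LCK MYCChr6 tumours, against 50.7, 156 and 305 CPM in RERT2 tumours. The part of fibroblasts in the fall of Pdgfrb was not tested. By smallest p the rule added Acaa2, Mvb12b, Xrcc6, Hmgn2 and Prps2. Hmgn2, a nucleosome-binding protein gene, had 120, 266 and 353 CPM against 369, 589 and 777 CPM in RERT2 tumours (-1.13 ± 0.12), and Mvb12b had 0.201, 2.98 and 16.7 CPM against 30.5, 58.5 and 90.3 CPM (-3.49 ± 0.34). Neither overlapped.

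Markers of other cell types moved with the groups. Of 12 granulocyte markers 7 were tested and all 7 rose (5 without replicate 9, where Mpo and Camp did not pass the count filter). The summed level of the list was 17.4, 261 and 3723 CPM in LCK MYCChr6 tumours, against 0, 3.03 and 104 CPM in RERT2 tumours. With RERT2 levels near 0, a granulocyte marker could pass the count filter mainly through LCK tumours where it was high. The count of 7 of 7 was therefore largely set by the filter. Of 17 B cell markers 9 were tested and 7 rose (7 rose and 1 fell without replicate 9), a count open to the same effect of the filter. The list summed to 61.2, 184 and 1247 CPM in the 13 LCK tumours other than replicate 9 and 15340 CPM in that tumour. In RERT2 tumours the sums were 36.8, 59.8 and 149 CPM. Pax5 and Cd79a had medians of 9.09 and 19.6 CPM in LCK MYCChr6 tumours against 0.474 and 0.588 CPM in RERT2 tumours, and Vpreb1 and Igll1 were at a median of 0 in both. Dendritic cell markers rose in 6 of 8 (4 of them MHC class II genes, which B cells also express; 0 with the B cell marker covariate), macrophage markers in 2 of 9 and natural killer markers in 2 of 6 (Ccl5 and Nkg7), with 1 lower (Gzma). Red cell markers gave none of 4. Gamma delta markers fell in 2 of 6, endothelial in 1 of 2 (0 without replicate 9), fibroblast in 2 of 3 (1 without replicate 9, where Col1a2 did not pass the count filter) and thymic epithelial markers in 1 of 3, where Foxn1 and Krt14 had a median of 0 in both groups. The part of these cells in the gene results was not tested, beyond the fit with summed B cell markers as a covariate, whose counts stand beside several of the lists.

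The RERT2 tumours with MYCChr6 differ from the RERT2 tumours by that allele as labelled, and from the LCK tumours by the line. In a fit of all 3 groups, 1495 of 15201 genes (9.83%) were called between RERT2 MYCChr6 and RERT2 tumours, 1135 higher (7.47%) and 360 lower (2.37%); DESeq2 gave 683 and 655, and without RERT2 MYCChr6 replicate 3 edgeR called 619 genes. Between LCK MYCChr6 and RERT2 MYCChr6 tumours 5 genes were called (0.0329%), 1 higher (0.00658%) and 4 lower (0.0263%). Of the 15201 genes, 840 had an unadjusted p under 0.05, near the share of 0.05 that no difference would give. With 3 tumours in a group, simulated 2-fold changes were recovered in 18% and 13% of genes in these 2 contrasts and 4-fold ones in 64% and 63%, against 62% and 96% in the main comparison. Each simulation changed 100 genes per fold, all above a minimum mean level, where the real main comparison called 35.3% of genes. Recovery in the real fits may therefore differ. The contrasts share samples with the main one, so their values are set side by side only.

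In the 3 RERT2 MYCChr6 tumours Ccnd2, Xrcc6, Ptcra, Notch1 and H2-K1 lay within the LCK range. Ccnd2 had 222, 295 and 240 CPM in them (log2 fold change against RERT2 tumours 6.12 ± 0.52, adjusted p = 1.7e-10), Xrcc6 had 37.9, 52.1 and 32.4 CPM (-3.40 ± 0.49) and Ptcra had 0, 0.176 and 0.228 CPM (-8.81 ± 1.97). Notch1 had 38.4, 17.1 and 206 CPM (-4.50 ± 1.35, adjusted p = 0.026). H2-K1 had 239, 441 and 1290 CPM (3.53 ± 0.46). Other named genes did not lie within the LCK range in every RERT2 MYCChr6 tumour. Samhd1 was at 1.09 CPM and Gimap3 at 11.2 CPM in 1 of the 3 tumours, under every LCK tumour. In the others Samhd1 was at 66.3 and 87.8 CPM and Gimap3 at 62.3 and 57.5 CPM. Mvb12b had 33.5, 5.63 and 18.9 CPM, against at most 16.7 CPM in LCK tumours. Acaa2 had 77.7 CPM in replicate 1, against at most 60.4 CPM in LCK tumours. The granulocyte marker S100a9 had 1.81, 1.23 and 12.5 CPM, against 3.26 to 863 CPM in LCK tumours. It did not pass the test against RERT2 tumours (1.63 ± 1.32, adjusted p = 0.51). Over all genes, the contrast of RERT2 MYCChr6 with RERT2 tumours called 7.47% higher and 2.37% lower. In the lists it called 5 of 19 Notch genes lower and 1 higher, and 12 of 20 mature genes higher. It called 9 of 18 class I genes higher and 1 lower, and 5 of 20 double positive genes lower. Of 17 B cell markers 12 were higher, and of 12 dendritic cell markers 3. Of 32 nucleolar genes 2 were higher, and of 30 replication genes 2 were lower and 1 higher. No chaperonin gene or granulocyte marker was called. These totals count members whether or not they passed the count filter. No list member was called between the MYCChr6 groups. RERT2 MYCChr6 replicate 3 had summed B cell markers of 2428 CPM and class I genes of 7538 CPM, where replicates 1 and 2 had 38.0 and 378 CPM of B cell markers and 2502 and 2447 CPM of class I genes; the part of those cells in this contrast was not tested. The LCK-Cdc20(+/D) MYCChr6 tumours, which lack the AAA allele, had 191 to 265 CPM of Ccnd2 and 3.62 to 55.0 CPM of Notch1.

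Of the 5 genes called between LCK MYCChr6 and RERT2 MYCChr6 tumours, 4 are described, chosen after their values were seen. Trav15-1-dv6-1, a T cell receptor segment, was lower, with a highest level of 1.03 CPM among LCK tumours against 141, 0.352 and 0.228 CPM in the RERT2 MYCChr6 tumours. Mpp4 and Mc1r were also lower, with 205 and 152 CPM in 1 RERT2 MYCChr6 tumour, replicate 1. Moap1 was the only rise (4.60 ± 0.934), with 2.59, 8 and 13.9 CPM in LCK MYCChr6 tumours against 0, 0.528 and 0.456 CPM in RERT2 MYCChr6 tumours.

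Mean expression over some whole chromosomes also differed between the groups, with ranges that overlapped for every chromosome. The chromosome score was the mean log2 level of its genes relative to the control thymus libraries, centred on the median chromosome of each library. Chromosome 6 scored -0.003, 0.395 and 0.633 in LCK MYCChr6 tumours, against -0.195, -0.050 and 0.435 in RERT2 tumours (difference 0.425, permutation adjusted p = 8e-05, from the smallest p that the resamples can give, 2e-05). Chromosome 14 went the other way, at -0.117, 0.060 and 0.474 against 0.137, 0.558 and 0.977 in RERT2 tumours (difference -0.465). Scores above 0.292, the midpoint between no change and the log2 of 1.5, were counted as gains. A gain here is of the RNA score, and DNA copy number was not measured. Chromosome 6 was above this limit in 12 of 14 LCK MYCChr6 tumours and 2 of 22 RERT2 tumours (Fisher's exact adjusted p = 6.47e-05), and chromosome 14 in 3 of 14 and 21 of 22 (adjusted p = 6.47e-05). At a limit of 0.4 the chromosome 6 counts were 6 of 14 and 1 of 22 (Fisher's exact adjusted p = 0.0833). With scores centred on the 36 tumours neither chromosome passed the test (adjusted p = 0.0833 for chromosome 6 and 0.312 for chromosome 14). That centring takes out any shift that most tumours share, while the limit stays at 0.292. Fewer tumours can then lie above the limit, so that setting cannot check the counts against control thymus.

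Chromosome 15, which holds the endogenous Myc gene, was above the limit in 10 of 14 LCK MYCChr6 tumours and 22 of 22 RERT2 tumours, a difference that did not pass the test (adjusted p = 0.0850), and the mean scores differed by -0.059 (p = 0.477). The LCK scores spread more widely, from 0.098 to 1.145 against 0.294 to 0.844 in RERT2 tumours. Chromosome 3 was above the limit in 6 of 14 and 1 of 22 (adjusted p = 0.0555; 5 of 14 and 0 of 22 with genes down to 1 CPM, adjusted p = 0.0354) and its mean score was higher by 0.314. Chromosomes 1 and 4 were above it in none of the LCK MYCChr6 tumours and in 5 RERT2 tumours each. In all, 10 of 20 chromosomes differed in score, with chromosomes 3, 6, 7 and 19 higher and 1, 2, 4, 5, 14 and 16 lower. Chromosome 19 did not pass with a trimmed mean (adjusted p = 0.11) or without centring (adjusted p = 0.372). Tumours had 0, 2.5 and 7 gains by RNA score (lowest, median and highest) in the LCK MYCChr6 group and 1, 3 and 6 in the RERT2 group. The 2 LCK tumours with neither chromosome 6 nor 15 above the limit were replicate 9 and replicate 6. Replicate 6 scored 0.181 for chromosome 6 and 0.098 for chromosome 15, and had no chromosome above the limit.

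**Figure D4:**
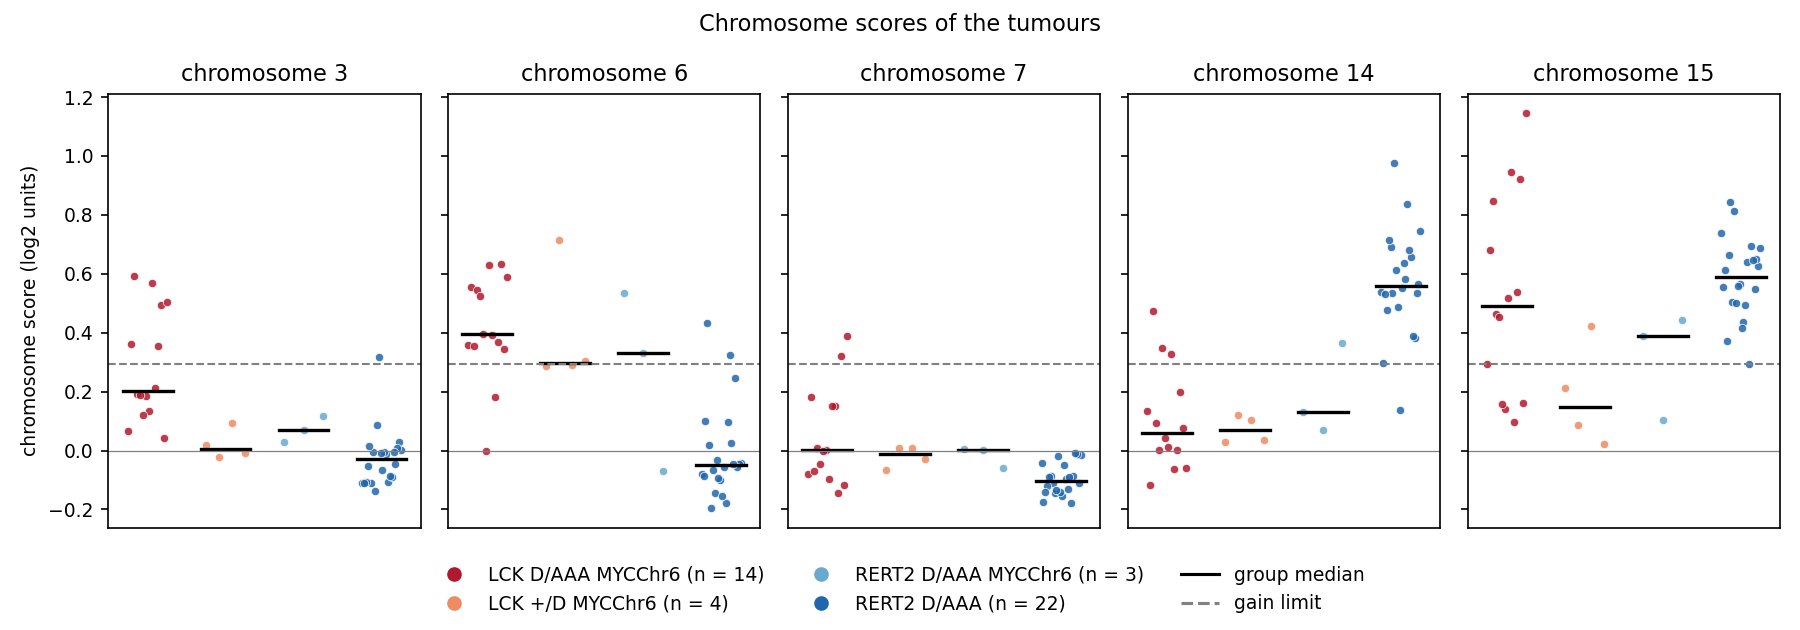
Expression scores of 5 chromosomes in each tumour, in log2 units relative to control thymus, by group; each point is 1 tumour, the black line is the group median and the dashed line is the gain limit of 0.292. Chromosome 6 is above the limit in 12 of 14 LCK MYCChr6 tumours and 2 of 22 RERT2 tumours, and chromosome 14 in 3 and 21.

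Gene calls were unevenly spread over these chromosomes. Of 554 tested chromosome 6 genes, 47.1% were higher and 6.50% lower in LCK MYCChr6 tumours, and of 381 chromosome 14 genes, 6.56% were higher and 38.1% lower, against 18.6% and 16.7% over all genes. Of the 23 genes that rose without overlap, 5 lie on chromosome 6, Ccnd2 and Gimap3 among them. Among the RERT2 MYCChr6 tumours chromosome 6 scored 0.536, 0.329 and -0.069, and the LCK +/D tumours ran from 0.289 to 0.713.

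Chromosome 6 and 15 scores were correlated among the LCK MYCChr6 tumours (Pearson r = 0.601, permutation p = 0.0220, adjusted 0.0439; Spearman rho = 0.618, adjusted p = 0.0864; n = 14), with r = 0.644 without the 2 tumours farthest from the median chromosome 15 score and r = 0.474 (p = 0.0875) with genes down to 1 CPM. The 2 LCK tumours left out for r = 0.644 were replicates 8 and 14, with chromosome 15 scores of 0.945 and 1.145. Replicates 6 and 9, low on both chromosomes, stayed in. Their chromosome 6 scores were 0.181 and -0.003, and their chromosome 15 scores 0.098 and 0.140. The relation without replicates 6 and 9 was not computed. Among the RERT2 tumours r was -0.495 (adjusted p = 0.0439) and rho -0.211 (p = 0.343). Without 2 RERT2 tumours r was -0.267 (p = 0.257), so the relation in that group rested on those tumours. Mouse Myc did not follow the chromosome 15 score in either group (r = 0.284, p = 0.321 in LCK MYCChr6 tumours and r = -0.0753, p = 0.739 in RERT2 tumours). These were the 4 relations computed.

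**Figure D5:**
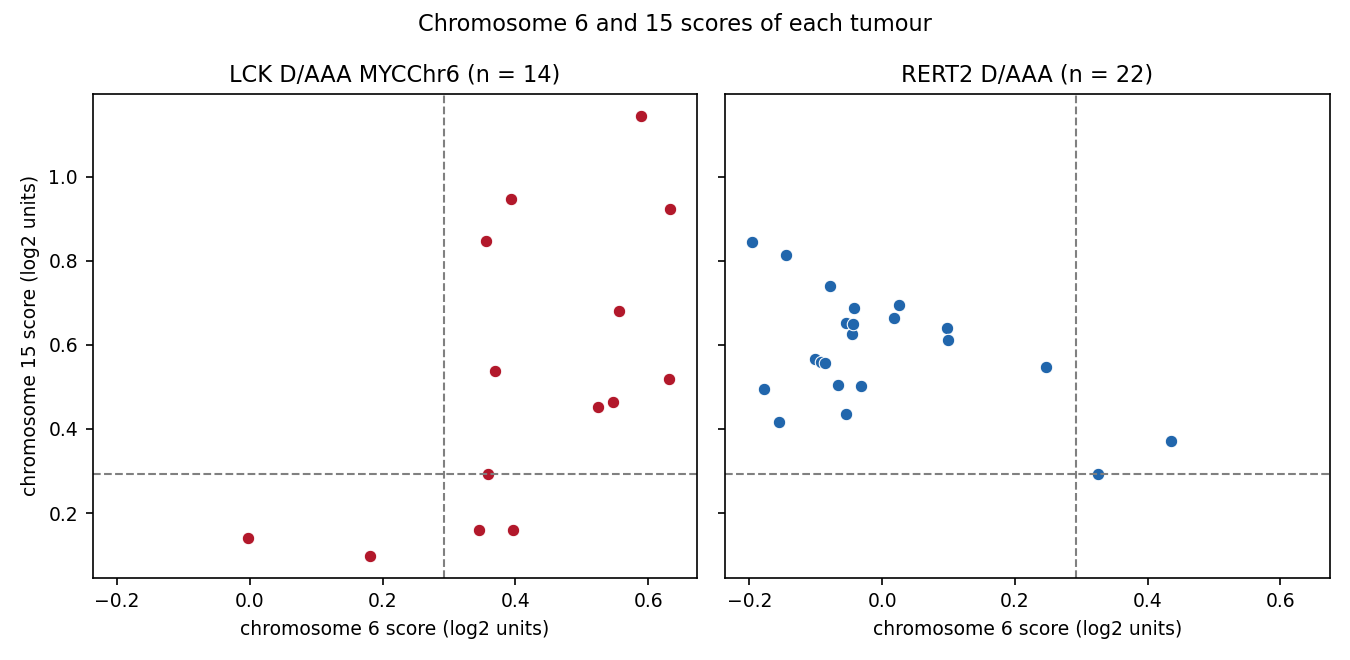
Chromosome 6 score (x axis) against chromosome 15 score (y axis) of each LCK MYCChr6 tumour (left) and RERT2 tumour (right), in log2 units; dashed lines are the gain limit of 0.292. In the LCK MYCChr6 group 10 of 14 tumours lie above both limits, and in the RERT2 group 2 of 22.

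T cell receptor segment use was summarised as the share of counts in the most abundant variable gene of each tumour. Trbv and Trav gave different readings, and whether the share measures the dominance of 1 rearrangement was not tested. The most abundant Trbv gene took 74.1% ± 23.8 of Trbv counts in LCK MYCChr6 tumours (n = 14) and 73.5% ± 21.4 in the 19 RERT2 tumours with at least 100 Trbv counts (permutation p = 0.944). It took over 50% in 12 of 14 and 15 of 19, and the top gene was 1 of 9 different genes among LCK tumours and 1 of 13 among RERT2 tumours. For Trav the top gene took 50.2% ± 24.5 in LCK MYCChr6 tumours and 24.1% ± 19.9 in 21 RERT2 tumours (permutation p = 0.00186).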

How the data were processed

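RNA-seq was measured in unsorted thymic lymphomas and thymus. The deposited expected counts per gene were made by the authors with STAR 2.5.3a and RSEM 1.3.0 on GRCm38/mm10, per the submitters' processing notes; whether reads were counted by strand is not stated there. The table held 50686 genes, all values were whole numbers, and no pair of libraries was identical; 76 of 157 libraries were of the later run. Totals were 4237526 to 7038313 in LCK MYCChr6 and 2461375 to 6639518 in RERT2 tumours, and their number limits the precision of low genes.

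Counts were filtered (filterByExpr), TMM-scaled and tested with edgeR 4.0.16 quasi-likelihood fits in R 4.3.3, with Benjamini-Hochberg adjustment over all genes tested (threshold 0.05). All adjusted p of genes are from edgeR; SE is the fold change divided by the root of F. Fits were tested on simulated data. Chromosome scores used 7239 genes with at least 10 CPM and permutation tests of 100000 resamples (SciPy 1.17.1, 2-sided), with Fisher's exact test for gains. Named genes had a mean of at least 5 CPM in 1 group and 80% of LCK tumours on 1 side of the RERT2 median: the 10 largest changes by fold and 5 more by p in each direction, plus list members. The members, lists and tests were chosen with earlier results of these data known. Gene positions are from the GENCODE annotation of GRCm38 and promoters from RefSeq GRCm38.p6. DESeq2 1.42.0, limma 3.58.1 voom and other settings were alternatives. Some genes are not reported here.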

Additional observations from a re-analysis of the deposited data

Results flagged for a closer look

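Among 18 groups of values checked for a library far from the rest, 2 stood out, both in replicate 4 of the 4 LCK-Cdc20(+/D) MYCChr6 tumours: mouse Myc at 219.2 CPM and the chromosome 6 score at 0.7131. Its gap to the nearest of the other 3 tumours, divided by the range of the group, was above Dixon's critical value in each case. Chance gives such a gap in about 1 in 20 groups.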

How the results depend on the processing

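Of the results that answer a comparison, 25 values under alternatives kept their direction and side of the threshold (or stayed within 1.5 times for a count). The 3934 genes called became 7167 in 1 fit of all later-run libraries, 7669 with no low-count filter and 2318 with the CT010467.1 share as a covariate; more or fewer genes were tested in the first 2, and the cause in the last was not tested. DESeq2 gave 4175, voom 4076 and the B cell marker covariate, chosen after seeing the data, 3220. RERT2 MYCChr6 against RERT2 gave 1495 genes, 619 to 1154 when 1 of the 3 tumours was left out (619 without replicate 3), and DESeq2 split its calls into 683 higher and 655 lower, against 1135 and 360. LCK MYCChr6 against RERT2 MYCChr6 gave 25 genes with DESeq2, against 5. Chromosomes with a different number of gains were 1 at a limit of 0.4 and 0 when scores were centred on the 36 tumours, against 2, and 3 with genes down to 1 CPM. Centring on the 36 tumours takes out shifts that most of them share. Chromosomes 9, 10 and 11 passed the score test with genes down to 1 CPM, and 8 and 11 without centring. The top Trbv share difference of 0.632 points was -1.76 with at least 500 counts (p = 0.825) and 26.1 for Trav (p = 0.00186). With genes down to 1 CPM, r of the chromosome 6 and 15 scores in LCK MYCChr6 tumours was 0.474 (p = 0.0875) and that of Myc and chromosome 15 in RERT2 tumours was 0.0433 (p = 0.8502); without 2 tumours, r of chromosomes 6 and 15 in RERT2 tumours was -0.267 (p = 0.257). For other single values, 765 were the same, 46 moved, 6 gained and 9 lost the call, and none reversed. No paired analysis was possible because replicate numbers were given in accession order. No library total was under the median divided by 3, so that alternative was not run.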
